A study of Mus musculus with 19 samples.

Results

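miR-221 and miR-222 are microRNAs from a pair of neighbouring hairpins on the mouse X chromosome, and each hairpin gives a guide strand and a less abundant star strand. The 4 names miR-221, miR-221*, miR-222 and miR-222* were taken by name from the 528 miRNA names measured in the series. The pair was chosen by its measured levels in these same libraries, above all the low levels in Purkinje cells against cerebellum and in Gad2 cells against neocortex and Camk2a cells. Levels, fold changes and counts of members past a threshold are therefore a description and support nothing. The ratio between the guides and the share of the star arm did not enter that choice and were tested.

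A miRNA loaded into Argonaute 2 (Ago2) pairs through its seed, bases 2 to 8, with sites in messenger RNAs and lowers their translation or stability. After processing by Drosha and Dicer, 1 strand of the duplex, the guide, is mostly kept and the other, the star, is mostly lost. miR-221 and miR-222 are known from studies of cell proliferation, where they repress the cell cycle inhibitor Cdkn1b and the receptor tyrosine kinase Kit. They are also well known in endothelial cells and vascular smooth muscle. In current naming both guides are 3p arms and both stars are 5p arms.

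The sequences show what the guides share and where they part. They come from RefSeq (GRCm38.p6), in which 3 of the 4 members had a mature sequence, and are written 5′ to 3′ with the seed in capitals.
miR-221-3p: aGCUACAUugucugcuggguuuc
miR-222-3p: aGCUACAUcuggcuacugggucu
miR-221-5p (miR-221*): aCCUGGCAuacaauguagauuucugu

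Both guides are 23 bases long, and their first 8 bases are identical, so they carry the same seed. Compared position by position, 11 of the 23 bases are identical, so the stretch after the seed separates their reads. Of 1738 mature entries in the RefSeq table, 3 have this seed, namely the pair and miR-1928, which is not analysed here. The star arm of miR-221 starts with a different seed. RefSeq lists it at 26 bases, longer than the 19 to 24 nt window of the libraries, and the lengths of the reads counted for it were not analysed here.

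The hairpins are shown to place both arms, with the mature arms listed in RefSeq in capitals.
Mir221: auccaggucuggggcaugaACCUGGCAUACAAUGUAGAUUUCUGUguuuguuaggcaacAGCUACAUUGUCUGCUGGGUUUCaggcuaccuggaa
Mir222: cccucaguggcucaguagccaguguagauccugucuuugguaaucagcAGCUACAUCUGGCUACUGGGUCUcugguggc

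Mir221 lies at chrX:19146294-19146388 and Mir222 at chrX:19146893-19146971, both on the minus strand of GRCm38, with 504 bases between them. Within them the guide miR-221-3p occupies chrX:19146307-19146329 and miR-222-3p chrX:19146901-19146923. In the GENCODE M21 annotation each hairpin is an exon of its own miRNA gene and lies inside no other gene. The nearest gene, Gm14636, a noncoding processed transcript, is 10010 bases away. The reads were mapped by the authors to mm9, and these positions were not taken from their files.

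The libraries held small RNA precipitated with Ago2 from the brain of mice at postnatal day 56. Whole neocortex (C57BL/6 & BALB/c, 3 libraries of 1 tissue each) and whole cerebellum (C57BL/6 & black swiss, 3 libraries of 1 tissue each) were precipitated with anti-Ago2. Anti-myc was used where a Myc-tagged Ago2 marked a class of cells. In the neocortex these were Camk2a cells (C57BL/6 & BALB/c, 3 libraries of 1 tissue), Gad2 cells (C57BL/6 & 129, 3 libraries of 4 pooled tissues), and PV and SST cells (C57BL/6 & 129, 2 libraries of 4 pooled tissues each). In the cerebellum they were Purkinje cells (C57BL/6 & black swiss, 3 libraries of 3 pooled tissues). Excitatory neurons of the forebrain express Camk2a, GABAergic neurons make GABA with the enzyme Gad2, interneurons with parvalbumin (PV) or somatostatin (SST) are separate subclasses, and Purkinje cells are the GABAergic output neurons of the cerebellar cortex. The driver of the tag is not given in the labels, and replicates are numbered with no statement that they are separate animals, so the spread between them may be partly technical.

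The libraries held 1229834 (Cerebellum replicate 1) to 14249087 (Gad2 replicate 1) miRNA reads, recovered from the scaled values. Levels are reads per 1000000 miRNA reads (RPM), which are shares of a library's miRNA pool. Fewer cells of a type in a tissue and less of a miRNA per cell cannot be told apart in whole tissue. A library in which a name has 0 reads allows a level of up to 3 reads, which is 0.211 to 2.439 RPM depending on depth, and this limit and all intervals cover counting error only. The summed level of 7 neuronal miRNAs lay between 171395 and 391136 RPM in all 19 libraries. Much of that sum was miR-124, as in the means of PV (342179 of 359327 RPM) and Purkinje (292539 of 339664 RPM). Other members differed between classes. Means of miR-137 and miR-218 were 10.2 and 141 RPM in Purkinje, and miR-128 ran from 153461 RPM in Camk2a to 1888 RPM in PV. No list for a single neuron class was used.

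miR-221 was higher in every Camk2a and whole-tissue library than in any library of the GABAergic classes. In Camk2a cells it stood at 3065, 2447 and 2199 RPM, which ranked it between 40 and 49 of the 528 names. In whole neocortex the level was 1396, 1309 and 1706 RPM, all below the lowest Camk2a library. Gad2 cells held 147, 83.6 and 400 RPM, with replicate 3 apart from the other libraries of that group and still below every Neocortex library.

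The interneuron subclasses held less miR-221 than any Gad2 library. The level was 71.2 and 61.0 RPM in SST cells and 47.5 and 37.8 RPM in PV cells. Whole cerebellum gave 506, 631 and 628 RPM, while Purkinje cells gave 7.76, 5.61 and 3.85 RPM. The Purkinje values rest on 16, 14 and 13 reads.

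As means ± SD the order for miR-221 was Camk2a (2571 ± 446 RPM, n = 3), Neocortex (1470 ± 208, n = 3), Cerebellum (588 ± 71.6, n = 3), Gad2 (210 ± 167, n = 3), SST (66.1 ± 7.16, n = 2), PV (42.6 ± 6.87, n = 2) and Purkinje (5.74 ± 1.96, n = 3). No 2 neighbours in this order overlapped in their libraries. How many of all names separate in this way was not counted, here or for the other members, and nothing is read from it. The gap between Cerebellum and Gad2 was narrow, with 506 RPM in the lowest Cerebellum library against 400 RPM in Gad2 replicate 3.

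miR-222, the partner with the same seed, followed the same order of group means at lower levels. It stood at 618, 834 and 727 RPM in Camk2a cells and at 551, 580 and 715 RPM in whole neocortex, so these groups overlapped. Gad2 cells held 65.8, 41.7 and 123 RPM and whole cerebellum 114, 137 and 125 RPM, which also overlapped through Gad2 replicate 3. The remaining groups were far lower. SST cells held 11.7 and 12.6 RPM and PV cells 12.2 and 9.01 RPM, with no separation between them. Purkinje cells held 1.45, 1.20 and 0.888 RPM, which is 3 reads in each library and so at the limit that a count of 0 allows.

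**Figure D1:**
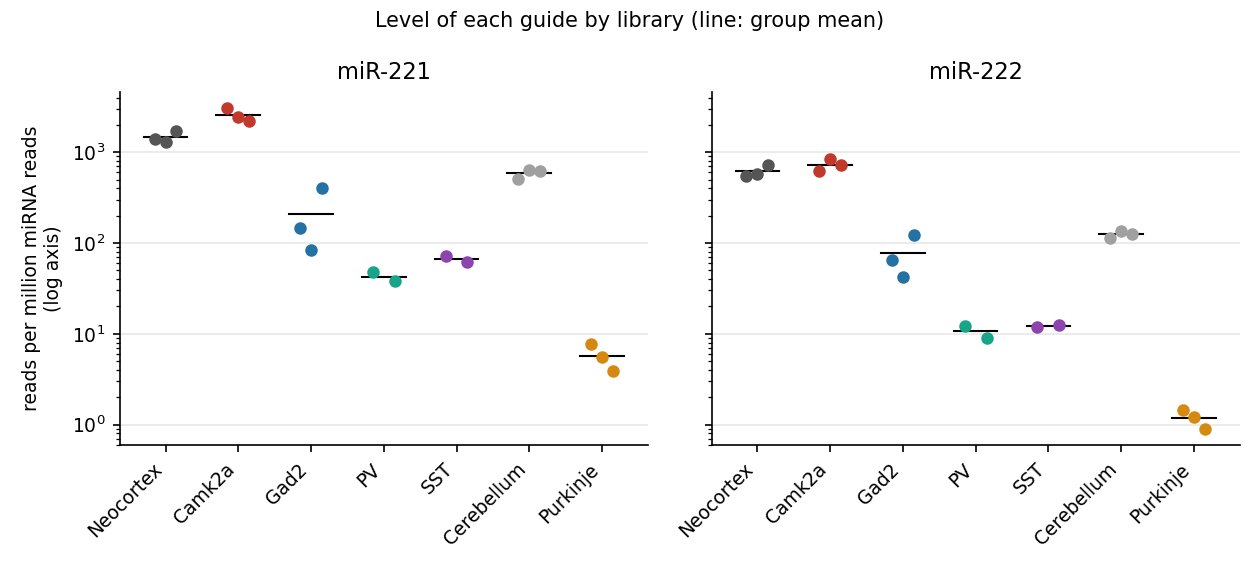
Level of miR-221 (left) and miR-222 (right) in each of the 19 libraries, in reads per 1000000 miRNA reads on a log axis; points are libraries and lines are group means. Camk2a, Neocortex and Cerebellum lie above every PV, SST and Purkinje library, and Gad2 replicate 3 lies above the other Gad2 libraries for both guides.

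Both guides have the same length in RefSeq, so their read shares can be set side by side, although how well each sequence is ligated and amplified was not measured here. With their star arms included, the hairpins held 0.332% of miRNA reads in Camk2a cells and 0.212% in whole neocortex. The share was 0.0719% in Cerebellum, 0.0290% in Gad2, 0.00793% in SST, 0.00540% in PV and 0.000692% in Purkinje.

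The 9 comparisons of groups were fitted with limma over 522 of the 528 names, those with a deposited value of at least 1 in 2 libraries, and all 4 members passed. Changes are on the log2(value + 1) scale of the deposited values, which understates the change of low names, and a name is called at a Benjamini-Hochberg adjusted p under 0.05. The share of all names called is given beside each count of members. Since the members were chosen on these levels, the calls are no test of the pair and nothing is read from the counts.

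Whole cerebellum was compared with whole neocortex under 1 antibody. miR-221 was lower in cerebellum by 2.5-fold (log2 change -1.32 ± 0.37 SE) and miR-222 by 4.9-fold (-2.29 ± 0.29). All 4 members were called lower, against 36% of all names, and the median change was -2.23 over the members and -0.40 over all names. The count was 3 without Neocortex replicate 2 or 3 or Cerebellum replicate 1, where miR-221* was not called (limma adjusted p = 0.0544, 0.0704 and 0.0604). The strains of these groups differ, so region and strain cannot be told apart.

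Purkinje cells were compared with the whole cerebellum that contains them. miR-221 was 104-fold lower (log2 change -6.70 ± 0.37 SE) and miR-222 99.15-fold lower (-6.63 ± 0.29), which ranked 10 and 12 from the lowest of 522 changes. From summed reads, 815 in Cerebellum against 9 in Purkinje, miR-222 was 114-fold higher in Cerebellum (95% counting interval 59.6 to 250), and miR-221, with 3830 against 43 reads, 112-fold higher (82.9 to 155). All 4 members were called lower, against 37.4% of all names. The median change was -6.10 over the members and -0.19 over all names. The count was 3 without Cerebellum replicate 2 or 3, where miR-222* was not called (limma adjusted p = 0.109 and 0.0983).

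Other cell types moved with that comparison. The 3 vascular-wall miRNAs found of 7 listed (miR-126-3p and miR-126-5p of endothelium, and miR-143 of smooth muscle and mural cells) summed to 5810 to 6312 RPM in Cerebellum and 323 to 424 RPM in Purkinje, and 3 of 3 were called lower. Of the leukocyte and microglia list 5 of 7 were lower (503 to 576 against 3.26 to 30.8 RPM, with miR-223* at 0 in Purkinje), of the erythroid list 3 of 3 (1948 to 2508 against 34.0 to 50.4 RPM, with miR-144* at 0), and of the ependymal and choroid plexus list 6 of 6 (1457 to 1926 against 10.95 to 18.9 RPM, with miR-34b-3p and miR-34c* at 0). The oligodendrocyte list had 1 of 4 lower (3364 to 3564 against 2743 to 3249 RPM). No vascular-wall member was at 0 in Purkinje. The part of these cells in the low level of the pair was not tested. Of the neuronal list 5 of 7 members were also called lower and 1 higher (median change -2.07).

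Within the neocortex the labelled classes were set against the whole tissue. In Camk2a cells against whole neocortex miR-221 was 1.74-fold higher (log2 change 0.80 ± 0.37 SE), miR-222 1.18-fold higher (0.24 ± 0.29) and miR-222* 1.36-fold higher (0.45 ± 0.89), and miR-221* was 3.85-fold lower (-1.95 ± 0.73). The called member was miR-221*, lower, against 28% of all names, and 2 of the 4 had an unadjusted p under 0.05. Median changes were 0.34 over the members and -0.25 over all names. Under TMM factors, edgeR and DESeq2 the change of miR-221 was 1.03, 1.12 and 1.07, and 2 members were called, miR-221 higher beside miR-221* lower. The count fell to 0 without Neocortex replicate 2 or 3 or any 1 Camk2a replicate, and was 2 without Gad2 replicate 2 or 3.

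Markers of most other cell types were lower in that comparison. The vascular-wall list summed to 7841 to 8178 RPM in Neocortex and 934 to 993 RPM in Camk2a, and 3 of 3 found members were called lower. miR-143 stood at 4369 ± 359 RPM in Neocortex and 49.8 ± 7.34 RPM in Camk2a, and miR-126-3p at 2656 ± 571 and 689 ± 30.4 RPM (n = 3 each). Lower were also 4 of 4 oligodendrocyte, 3 of 3 erythroid and 4 of 7 leukocyte and microglia members, with miR-144*, miR-223* and miR-150* at 0 in Camk2a. Every Camk2a library held more miR-221 than every Neocortex library, and less of each summed vascular, oligodendrocyte, erythroid and leukocyte list. The part of these cells in the levels of the pair was not tested. The ependymal and choroid plexus sums overlapped (73.1 to 99.4 RPM in Camk2a, 97.4 to 125 RPM in Neocortex), with 3 of 6 members called lower. Of the 7 neuronal members 4 were called higher and 2 lower. These groups share strain and number of tissues but differ in antibody, and antibody and cell class cannot be told apart.

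Gad2 cells lay far below the tissue. Against whole neocortex miR-221 was 8.58-fold lower (log2 change -3.10 ± 0.37 SE) and miR-222 8.77-fold lower (-3.13 ± 0.29), and all 4 members were called lower, against 24.3% of all names. Against Camk2a cells, under the same antibody, miR-221 was 14.96-fold lower (-3.90 ± 0.37) and miR-222 10.3-fold lower (-3.37 ± 0.29). These were the fifth and the ninth lowest of 522 changes, and all 4 members were called lower, against 16.7% of all names. Median changes over the members and over all names were -3.32 and -0.10 against Neocortex and -3.64 and 0.09 against Camk2a. Against Camk2a the count was 3 without Camk2a replicate 2 or 3 or Gad2 replicate 1 or 2, where miR-221* was not called.

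Gad2 replicate 3 decided part of these sizes. Without it the change of miR-221 was -3.72 against Neocortex and -4.52 against Camk2a, and that of miR-222 was -3.54 and -3.78. In replicate 3 the vascular-wall list stood at 295 RPM (298 and 354 RPM in replicates 1 and 2), the erythroid list at 16.3 RPM (8.56 and 13.4) and the ependymal and choroid plexus list at 123 RPM (108 and 98.99). The oligodendrocyte list stood at 681 RPM (733 and 729) and the leukocyte and microglia list at 13.7 RPM (14.9 and 25.5). Their part in the higher guides of that library was not tested.

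The vascular-wall list was lower in Gad2 than in Camk2a cells, as the guides were, with 2 of 3 members called lower (295 to 354 against 934 to 993 RPM, median change -1.59). Of the other lists 0 of 3 erythroid, 0 of 7 leukocyte and microglia and 0 of 4 oligodendrocyte members were called lower, 1 of 6 ependymal and choroid plexus members and 4 of 7 neuronal members. Called higher were 2 of 4 oligodendrocyte and 3 of 6 ependymal and choroid plexus members, and 0 members of the remaining lists. The part of vascular cells in the difference of the guides was not tested. Gad2 and Camk2a groups also differ in strain and pooling, which cannot be told apart from the class.

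PV and SST cells lay lower still against whole neocortex. In PV cells miR-221 was 34.4-fold lower (log2 change -5.10 ± 0.41 SE) and miR-222 57.8-fold lower (-5.85 ± 0.33). In SST cells miR-221 was 22.1-fold lower (-4.47 ± 0.41) and miR-222 49.9-fold lower (-5.64 ± 0.33). All 4 members were called lower in each, against 29.3% of all names in PV and 21.5% in SST, and the medians over the members were -5.27 and -5.21 against -0.21 and 0.13 over all names. In these comparisons with Neocortex the vascular-wall list was also lower, 3 of 3 members each in Gad2, PV and SST, with sums of 295 to 354, 295 to 330 and 734 to 766 RPM. Called lower in each were also 3 of 3 erythroid, 4 of 4 oligodendrocyte and 5 of 7 leukocyte and microglia members, with miR-223* at 0 in all 3 classes. Their part in the low guides was not tested. Of the 6 ependymal and choroid plexus members 2 were called higher and 2 lower in Gad2, 2 and 2 in PV, and 3 and 1 in SST. That list summed to 425 to 430 RPM in SST against 97.4 to 125 RPM in Neocortex. Of the 7 neuronal members 1 was called higher and 3 lower in Gad2, 3 and 3 in PV, and 2 and 4 in SST. All these comparisons share the 3 Neocortex libraries.

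PV cells were also set against SST cells. miR-221 was 1.56-fold lower in PV (log2 change -0.64 ± 0.45 SE) and miR-222 stood at -0.21 ± 0.36, and 0 of 4 members were called in either direction against 29.1% of all names. Median changes were 0.05 over the members and -0.42 over all names. In limma 0 of the 4 had an unadjusted p under 0.05, and edgeR and DESeq2 also called 0. The sign for miR-222 depended on the scaling, with 0.42 under TMM factors, 0.25 in edgeR and 0.33 in DESeq2.

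Purkinje cells, the projection neurons, also lay below the mixed Gad2 cells of the neocortex. miR-221 was 30.3-fold lower (log2 change -4.92 ± 0.37 SE) and miR-222 55.4-fold lower (-5.79 ± 0.29), with all 4 members called lower against 34.5% of all names and medians of -4.26 and -0.31. Without Gad2 replicate 3 these changes were -4.31 and -5.38. The vascular-wall list was near the same level in both (323 to 424 RPM in Purkinje, 295 to 354 RPM in Gad2), with 1 member called lower and 1 higher. The ependymal and choroid plexus list was lower in Purkinje, as the guides were, with 6 of 6 members called (10.95 to 18.9 against 98.99 to 123 RPM, median change -3.64). The oligodendrocyte list had 2 of 4 members called higher (2743 to 3249 against 681 to 733 RPM). Of the erythroid list 1 of 3 members was called higher, and of the leukocyte and microglia list 1 of 7 higher and 1 lower. The part of these cells in the difference of the guides was not tested. Of the neuronal list 4 of 7 members were called lower and 1 higher. Region, strain and pooling differ between these groups and cannot be told apart from the class.

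**Figure D2:**
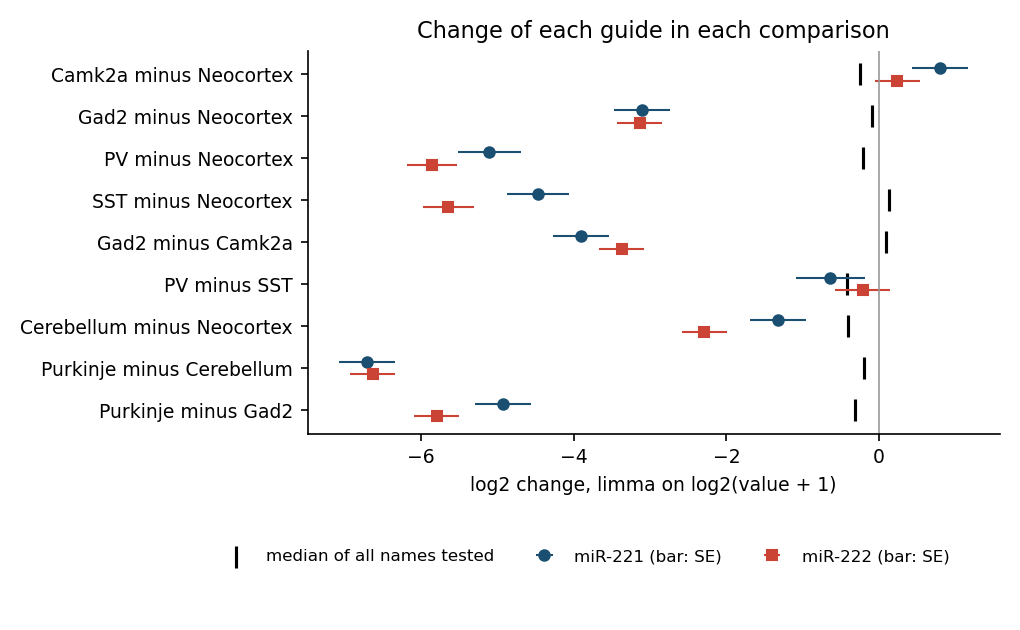
Log2 change of miR-221 (circles) and miR-222 (squares) in 9 comparisons, fitted by limma on log2(value + 1), with bars of 1 SE and a black tick for the median of all 522 names. Both guides lie below the median except in Camk2a minus Neocortex and in PV minus SST, where miR-222 lies above it, and the largest differences are those of Purkinje minus Cerebellum (-6.70 and -6.63).

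The ratio of the guides within a library does not depend on the library total, and was used to ask whether the hairpins kept 1 proportion. miR-222 made up 28.3%, 30.7% and 29.5% of the reads of both guides in whole neocortex and 18.4%, 17.8% and 16.5% in whole cerebellum, and these ranges were apart. In Camk2a cells the share was 16.8%, 25.4% and 24.8%, all below the lowest Neocortex library, with replicate 1 outside the counting intervals of the other Camk2a libraries. Gad2 cells gave 30.9%, 33.3% and 23.5%, the last from replicate 3.

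In PV and SST cells the share of miR-222 lay below every Neocortex and Gad2 library. It was 20.4% and 19.3% in PV and 14.2% and 17.1% in SST cells. In Purkinje cells it was 9 of 52 summed reads, or 17.3% (95% Clopper-Pearson interval 8.23% to 30.3%), which the depth does not separate from Neocortex. Means ± SD were 29.5% ± 1.20 in Neocortex, 29.2% ± 5.08 in Gad2, 22.3% ± 4.83 in Camk2a and 17.6% ± 0.94 in Cerebellum (n = 3 each).

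The log2 ratio of miR-222 to miR-221 differed between the 7 groups in a permutation test of the F statistic with 100000 resamples of the group labels (F = 9.56, p = 0.00137, 19 libraries), 1 test in its family. The mean ratio was highest in Neocortex and lowest in SST, 2.27-fold apart. The SST libraries had 15 and 31 reads of miR-222, and the mean ratio of Gad2 (0.418) was close to that of Neocortex (0.419). The test weighs all libraries alike, also Purkinje libraries with 3 reads of miR-222. Without Camk2a replicate 1 the p was 0.00017. Region, strain and antibody differ among the groups, and the test does not say which groups differ.

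**Figure D3:**
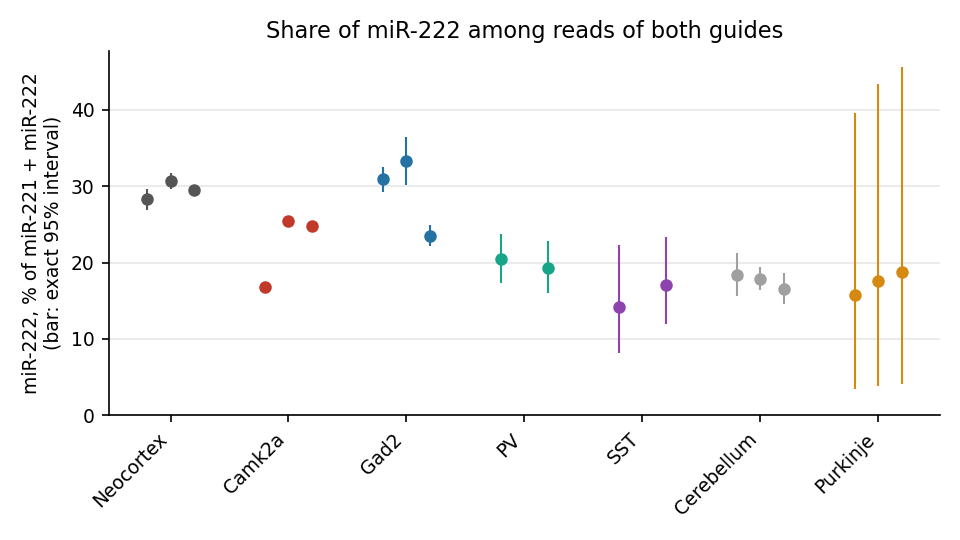
Share of miR-222 among the reads of both guides in each library, in percent, with exact 95% binomial intervals that cover counting error only. Neocortex libraries lie at 28.3% to 30.7% and Cerebellum libraries at 16.5% to 18.4%, while the Purkinje intervals are wide because each library has 3 reads of miR-222.

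miR-221*, the strand opposite to the guide of miR-221, was most abundant in whole neocortex. It stood at 10.7, 26.8 and 33.0 RPM there and at 4.46, 6.08 and 5.86 RPM in Camk2a cells, so every Camk2a library lay below every Neocortex library although their guide lay above. In Cerebellum the level was 3.25, 5.47 and 5.56 RPM and in Gad2 cells 0.421, 0.809 and 3.72 RPM. The other groups were at the limit of depth. PV cells held 0.559 and 0.262 RPM, SST cells 0.782 RPM (1 read) and 0, and Purkinje cells 0 in all 3 libraries. From summed reads, 32 in Cerebellum against 0, miR-221* was at least 13.4-fold lower in Purkinje, taking 3 reads over the group as the floor.

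miR-222* was present at similar low levels in Camk2a cells and neocortex. It stood at 13.4, 13.3 and 13.7 RPM in Camk2a and 8.38, 10.98 and 10.5 RPM in Neocortex, without overlap. Gad2 cells held 1.54, 0.270 and 1.00 RPM, and PV cells 0.466 and 0.262 RPM. In SST, Cerebellum and Purkinje libraries there were 0 to 4 reads each, and the 0 of Cerebellum replicate 1 allows up to 2.439 RPM, more than the 1.22 and 1.11 RPM of the other Cerebellum libraries. The summed reads, 6 in Cerebellum against 0 in Purkinje, bound the difference at 2.51-fold or more.

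Summed reads of the star arms gave folds with wide intervals in the GABAergic classes. Neocortex held 21.6-fold more miR-221* than Gad2 (95% counting interval 15.5 to 30.9) and 70.7-fold more than PV (36.9 to 156). For miR-222* the folds were 9.54 (6.49 to 14.5) over Gad2 and 28.6 (14.2 to 67.3) over PV. These intervals do not include the spread between libraries.

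The share of the star arm within a hairpin was then compared, since the arms come from 1 precursor. miR-221* was 0.761%, 2.01% and 1.90% of the reads of its hairpin in Neocortex and 0.145%, 0.248% and 0.266% in Camk2a. In Cerebellum it was 0.639%, 0.859% and 0.877% and in Gad2 0.286%, 0.958% and 0.922%. All 3 Camk2a libraries thus had a lower share than each Neocortex, Cerebellum and Gad2 library, although Gad2 replicate 1, with 6 star reads, was not separated from them at its depth. How many of all hairpins separate in this way was not counted. RefSeq lists miR-221* at 26 bases, beyond the 19 to 24 nt window, and the part of size selection in its share was not tested. PV cells gave 1.16% and 0.690%, from 6 and 3 star reads, while Purkinje cells gave 0 beside 43 guide reads, which allows up to 6.98%.

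The star share of miR-222 did not show that gap. It was 1.50%, 1.86% and 1.44% in Neocortex and 2.12%, 1.57% and 1.85% in Camk2a, which overlapped. Gad2 gave 2.29%, 0.643% and 0.808%, PV 3.68% and 2.83%, and Cerebellum 0%, 0.879% and 0.885%. In Purkinje cells there were 0 star reads beside 9 guide reads, which allows up to 33.3%.

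The ratio of star to guide reads was tested with limma on log2((star + 0.5)/(guide + 0.5)) over 156 hairpins with both arms named. Over the 7 groups both hairpins were called, miR-221 at an adjusted p of 0.000674 and miR-222 at 3.85e-05, as were 71.2% of all 156 hairpins. With 0.5 added per arm, a library with 0 star reads and few guide reads gets a high ratio, so depth enters this test. With 2 reads added per arm the limma adjusted p was 8.91e-08 (miR-221) and 2.27e-10 (miR-222). The calls over the 7 groups therefore do not separate arm share from depth. In the libraries of Neocortex, Camk2a, Gad2 and Cerebellum alone, the adjusted p was 0.00369 for miR-221 and 0.0998 for miR-222. This restriction was chosen after the data were seen, and the call for miR-222 was lost without PV, SST and Purkinje. It keeps Cerebellum, with 6 summed reads of miR-222*, and drops PV, with 8.

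The contrast of Camk2a with Neocortex was chosen after these shares had been seen, so it is described with no p. For miR-221 the ratio was 6.81-fold lower in Camk2a (log2 change -2.77 ± 0.56 SE, lower in 3 of 3 libraries), the third lowest of 156 hairpins. For miR-222 the change was 0.20 ± 0.50 SE, and the median of all hairpins was -0.04. In this contrast 32.7% of hairpins were called in either direction. Whether the difference between the hairpins was larger than chance was not tested, and the antibody differs between the groups. The part of size selection in the reads of miR-221* was not tested either.

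**Figure D4:**
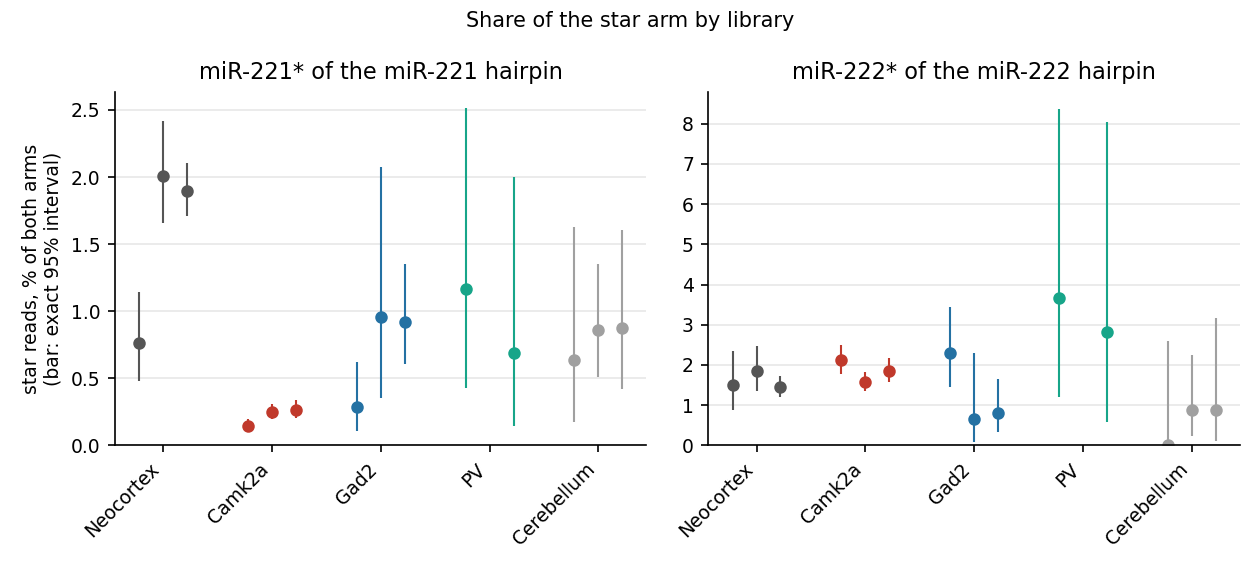
Star reads as a percentage of the reads of both arms for the miR-221 hairpin (left) and the miR-222 hairpin (right) in the libraries of 5 groups, with exact 95% binomial intervals for counting error; SST and Purkinje are left out for want of star reads. Camk2a libraries lie at 0.145% to 0.266% for miR-221*, below every other library plotted, though the interval of Gad2 replicate 1 (0.286%) spans them, while for miR-222* they overlap Neocortex.

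The miRNAs of most similar group means were then listed. Likeness was Pearson's r of log2(RPM + 1) of the 7 group means, among 219 names with at least 100 RPM in some group, given as a description over points that share library totals. The guides of the pair were closest to each other (r = 0.992, Spearman's rho = 1). Outside the pair miR-128, an intronic miRNA abundant in neurons, came first for miR-221 (r = 0.930, rho = 0.964) and for miR-222 (r = 0.949, rho = 0.964). Next were miR-135a (0.929 for miR-221 and 0.931 for miR-222), miR-92b (0.919 and 0.894) and miR-23a (0.916 and 0.897). miR-582-5p (0.910) completed the list for miR-221 and miR-23b (0.897) that for miR-222. Most of these did not have the order of the pair at its upper end. miR-128 was highest in Camk2a, as the guides were, while miR-135a, miR-23a and miR-23b were highest in Neocortex and miR-92b and miR-582-5p in Cerebellum. From Neocortex to Camk2a the log2 change was -1.45 ± 0.40 SE for miR-135a and -0.89 ± 0.25 for miR-23a, against 0.80 for miR-221.

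miR-128 was far more abundant than the pair. It stood at 153461 ± 14821 RPM in Camk2a, 78483 ± 12056 in Neocortex, 19155 ± 1115 in Cerebellum and 9122 ± 3497 in Gad2 (n = 3 each), and at 2344 ± 283 in SST and 1888 ± 155 in PV (n = 2 each). Its Purkinje mean of 2206 ± 216 RPM (n = 3) lay between SST and PV, so its log2 change from Cerebellum to Purkinje was -3.12 ± 0.19 SE, against -6.70 and -6.63 for the pair. miR-135a and miR-92b, in contrast, stood at 4.24 ± 3.08 and 3.57 ± 2.49 RPM in Purkinje cells and at 226 ± 20.2 and 293 ± 39.5 RPM in Cerebellum (n = 3 each).

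Gad2 replicate 3 was also the highest library of its group for these miRNAs. It held 13159 RPM of miR-128 against 7018 and 7191 in the other Gad2 libraries, 67.3 RPM of miR-135a against 26.0 and 38.3, and 39.9 RPM of miR-92b against 13.1 and 11.6. The excess in that library was therefore not limited to the pair, and what sets it apart was not tested.

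**Figure D5:**
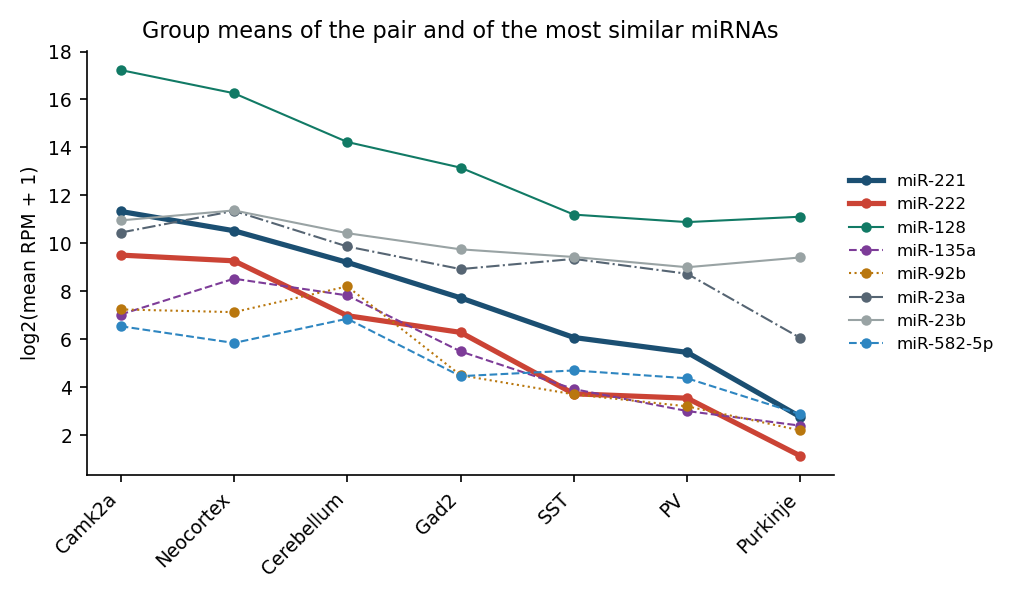
Group means of the pair (thick lines) and of the 6 miRNAs most like them, as log2(mean RPM + 1), with groups ordered by miR-221. miR-128 and miR-23b level off from SST to Purkinje, whereas the pair, miR-135a, miR-92b, miR-23a and miR-582-5p have their lowest group mean in Purkinje.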

How the data were processed

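Small RNA of 19 to 24 nt from immunoprecipitated Ago2 was ligated to adaptors, amplified by PCR and read on the Illumina Genome Analyzer II, per the labels' protocols. Reads were mapped with Bowtie to mm9, per the submitters' processing notes, whose version the sources used here do not give. The deposited signal is read counts scaled by the authors to a common total. Per the file headers values are per 1000000 miRNA reads, but the total of each column was 10000000, and RPM here is the deposited value over 10. Whole reads were recovered in all 19 libraries (100% of values within 0.0051 of a whole read), and depth was taken from them.

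The members and lists were chosen with earlier results of these data known. limma 3.58.1 in R 4.3.3 was fitted with a trend on log2(deposited value + 1) to 7 group means, for the 522 names that reached a value of 1 in at least 2 libraries, as the design asked for values that are not counts. Arm ratios used recovered reads with 0.5 added per arm, for 156 of 221 hairpins, kept where both arms together reached 20 reads in 2 libraries and each arm averaged 5. The ratio of the guides was tested by permutation in NumPy 2.4.6. edgeR 4.0.16 and DESeq2 1.42.0 on recovered reads, TMM factors (0.759 to 1.528), a pseudocount of 10, other filters, a replicate block and leaving out each library were alternatives. All members are described, and beside each guide the 5 names of highest correlation. The 6 marker lists had 3 of 7 vascular-wall, 7 of 8 leukocyte and microglia, 3 of 3 erythroid, 4 of 4 oligodendrocyte, 6 of 8 ependymal and choroid plexus and 7 of 8 neuronal names in the file. Replicates differed by more than counting error (chi-square per degree of freedom 38.3 to 739 over 17 pairs). The fits were tested on simulated data. All names but those of the pair, the lists and the correlated miRNAs were used in fits and are not described.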

Additional observations from a re-analysis of the deposited data

Results flagged for a closer look

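Changes of opposite direction were found for miR-221 and miR-222*. For miR-221 every Camk2a library lay above every Neocortex library (log2 change 0.80), while every Gad2 (-3.10), PV (-5.10) and SST library (-4.47) lay below Neocortex and every Purkinje library lay below Cerebellum (-6.70). For miR-222* every Camk2a library also lay above Neocortex (0.45), while Gad2 (-3.51), PV (-4.46) and SST (-4.78) lay below it. The neocortical comparisons share the 3 Neocortex libraries, the members were chosen on these levels, and these differences in direction were not tested. How many of all names show the same pattern was not counted, so it is not read as a trait of the pair. Groups of 2 or 3 libraries were too small for a check of single outlying libraries.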

How the results depend on the processing

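No member's log2 change, ratio or arm ratio with a call changed direction under the alternatives run. Of 252 log2 changes of members under other settings 210 moved by less than 1 SD between replicates and 42 by more. Those 42 were all under a pseudocount of 10, TMM factors, edgeR or DESeq2. The 684 values with 1 library left out did not move by more than that SD. The SD includes the library left out, so in groups this small they could not, and nothing is read from them. Signs changed in PV minus SST alone, for miR-222, miR-221* and miR-222*, none of them called. In Camk2a minus Neocortex 2 members were called under TMM factors, 2 in edgeR and 2 in DESeq2 against 1, and 0 to 2 with 1 library left out. The count of members called was 3 to 4 with 1 library left out in Cerebellum minus Neocortex, Purkinje minus Cerebellum and Gad2 minus Camk2a. The arm ratio of miR-222 had an adjusted p of 0.0998 in the Neocortex, Camk2a, Gad2 and Cerebellum libraries alone. Its p over leaving out 1 library was 1.53e-05 to 0.000196, that of miR-221 was 0.000131 to 0.00358, and the p of the guide ratio was 0.00017 to 0.00381. For the arm ratio of miR-221 in Camk2a minus Neocortex the change stayed between -3.22 and -2.50. TMM factors moved the median of all names from -0.40 to -0.17 in Cerebellum minus Neocortex, -0.25 to -0.04 in Camk2a minus Neocortex, 0.13 to -0.20 in SST minus Neocortex and -0.42 to 0.11 in PV minus SST, and the share of calls that were higher from 35.2% to 46.4%, 37.6% to 50.9%, 59.1% to 44.8% and 13.8% to 51.7%. Same-numbered libraries of different groups showed no shared deviation (mean correlation 0.0113 over 52 pairs, against -0.00575 for other numbers). With so few libraries per group this cannot show whether the numbers pair samples. With the mean of each replicate number subtracted first, the guide ratio had p = 0.00104 in the permutation test, with labels still permuted over all libraries. With a replicate block in limma the arm ratios had adjusted p = 0.00121 (miR-221) and 0.000181 (miR-222), and no count of members changed. Depth limits the star arms in PV, SST and Purkinje and both guides in Purkinje cells.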
